A study of Mus musculus with 27 samples.

Results

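Untreated mouse embryonic fibroblasts without the protein kinase PKBalpha were compared with untreated wild-type fibroblasts on 6 of the 27 arrays of the series, and 11431 of 18194 measured genes lay above background in at least 1 of the groups. The groups were 3 arrays of an untreated PKBalpha-null line (PKBa -/-, called KO) and 3 arrays of an untreated line labelled WT. The series asks how such cells respond to ionising radiation, and its other 21 arrays hold both lines at 4 h and 24 h after 10 Gy of gamma rays and a further line, labelled R, which per its labels is the knockout with PKBalpha restored. All cells were female and at passage 45, and were grown in DMEM with 10% serum, per the labels. Each genotype is a single line, so the spread between the arrays says how far cultures of that line differ and nothing about other lines of the same genotype. A difference between KO and WT cells is therefore a difference between these lines, in which the missing kinase, the embryo of origin and the history of each culture cannot be told apart. The titles set the groups. The descriptions of the 6 WT arrays whose titles give 4 h or 24 h call them untreated, so every value of irradiated WT cells below rests on the titles. How long the untreated cells were kept before RNA was taken is not given in the sources used here.

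PKBalpha, encoded by Akt1, is a serine and threonine kinase that is recruited to the membrane by the lipid product of PI3 kinase after insulin, insulin-like growth factor or other growth factors bind their receptors. It phosphorylates proteins that control survival, glucose use, protein synthesis and the cell cycle, among them FOXO transcription factors, the TSC2 brake on mTOR and BAD. PKBbeta, encoded by Akt2, is a close relative and shares many of its substrates. Mice that lack Akt1 are viable but small, so fibroblasts can be derived from null embryos.

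Values are microarray intensities on a linear scale. A level is the geometric mean of the 3 arrays of a group, and the background was set at an intensity of 48.31, the highest value of Y-linked probe sets, which female cells lack. Differences are log2 of KO over WT, given ± the standard error from the limma model (n = 3 arrays per group throughout), and a gene was called at a Benjamini-Hochberg adjusted p below 0.05 over all 18194 genes. Where a level lay below background, the fold was taken against the background and is a lower bound. Median intensities lay between 54.4 and 69.4 on the KO arrays and between 64.2 and 77.4 on the WT arrays, and replicate 2 of each group stood apart from the other arrays by the 3' to 5' ratio of the Gapdh control probe sets. Levels of 1 gene are compared between groups, and levels of different genes are not compared.

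The deleted gene checked the labels. By its brightest probe set Akt1 read 2.35, 52.7 and 24.9 in KO cells, against 3308, 2986 and 4465 in WT cells. The KO values lay just above background on 1 array and below it on the others, all far under the WT arrays, and the gene was at least 73.1-fold lower (-7.92 ± 0.87, adjusted p = 1.4e-06). Another probe set of the gene read 1.42, 3.91 and 2.36 in KO cells, against 2486, 2344 and 1654 in WT cells, and one more read 65.6, 40 and 63.5 in KO cells, against 124, 172 and 172 in WT cells. All 3 probe sets that read above background in WT cells were called lower in KO cells. Akt2 read 645, 758 and 927 in KO cells, against 878, 825 and 891 in WT cells, and its difference did not pass the test (-0.17 ± 0.14, adjusted p = 0.48). The mean of the 3 probe sets of Akt2 gave -0.60 (adjusted p = 0.021) and equal array medians gave 0.04 (adjusted p = 0.87), so its direction depended on the scaling.

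The promoters of 4 genes, 2 for each direction and chosen after their values were seen, are shown because these genes read below background in 1 line and bright in the other, and promoters differ widely in CpG content, the substrate of DNA methylation. Each window runs from 250 bases before to 50 bases after the RefSeq start on GRCm38.p6, 5′ to 3′ on the gene's own strand. Both strands were searched for TGANTCA (the letters of an AP-1 site), for CACGTG (an E-box), for TGACGTCA (the cAMP response element), for GTAAACA (letters bound by FOXO factors) and for TATAAA. Capitals would mark a match, and none occurred in these 4 windows.
Rpl39l, higher in KO, chr16:10169978-10170277 (strand +): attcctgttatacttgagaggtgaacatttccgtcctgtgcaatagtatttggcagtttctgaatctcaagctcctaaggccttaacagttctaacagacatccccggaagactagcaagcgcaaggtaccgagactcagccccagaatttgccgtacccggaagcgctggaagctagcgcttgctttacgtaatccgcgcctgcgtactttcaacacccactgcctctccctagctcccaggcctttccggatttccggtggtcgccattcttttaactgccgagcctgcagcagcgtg
Sox11, higher in KO, chr12:27342669-27342968 (strand -): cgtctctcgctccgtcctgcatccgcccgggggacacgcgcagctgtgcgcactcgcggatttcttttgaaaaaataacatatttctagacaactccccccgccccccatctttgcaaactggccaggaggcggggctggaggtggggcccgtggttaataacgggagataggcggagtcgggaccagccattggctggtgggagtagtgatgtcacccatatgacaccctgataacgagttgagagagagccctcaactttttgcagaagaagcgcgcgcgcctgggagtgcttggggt
Upk3b, lower in KO, chr5:136038246-136038545 (strand +): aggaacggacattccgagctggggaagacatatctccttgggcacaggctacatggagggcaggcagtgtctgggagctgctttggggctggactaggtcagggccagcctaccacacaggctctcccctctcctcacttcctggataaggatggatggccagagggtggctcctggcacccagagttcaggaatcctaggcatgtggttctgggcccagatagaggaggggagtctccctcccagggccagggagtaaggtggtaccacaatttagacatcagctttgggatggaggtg
Stk26, lower in KO, chrX:50841121-50841420 (strand +): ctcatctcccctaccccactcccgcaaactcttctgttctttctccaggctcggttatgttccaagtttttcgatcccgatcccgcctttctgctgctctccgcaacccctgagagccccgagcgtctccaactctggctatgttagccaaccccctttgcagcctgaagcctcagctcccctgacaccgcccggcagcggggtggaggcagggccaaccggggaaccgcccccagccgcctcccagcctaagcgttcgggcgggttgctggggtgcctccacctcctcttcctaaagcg

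The windows of Rpl39l, Sox11 and Stk26 held 17, 21 and 18 CpG dinucleotides and that of Upk3b held 2. The ratio of observed to expected CpG was 0.84, 0.82 and 0.65 for these 3 and 0.08 for Upk3b, against a median of 0.38 over all 32851 RefSeq windows and 0.76 over the windows of genes above background. Called genes that read above background only in WT cells had a median ratio of 0.47, those above background only in KO cells 0.57, all genes lower in KO cells 0.65 and all genes higher in KO cells 0.75. Called genes above background in only KO or only WT cells, whatever their level in the line labelled R, thus had CpG-poorer promoters at the median than expressed genes as a whole. This is a description with no test. TATAAA occurred in 14.3% of the windows of genes seen only in KO cells and 13.4% of those seen only in WT cells, against 7.11% of the windows of all genes above background and 13.6% of all windows. TGANTCA occurred in 8.79% and 9.25% of the same 2 sets, against 5.01% and 7.81%. CACGTG was in 7.69% and 6.69%, against 9.89% and 7.15%, TGACGTCA in 2.2% and 0.394%, against 3.03% and 1.79%, and GTAAACA in 3.3% and 3.35%, against 2.47% and 3.65%.

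The lines differed widely. Of the 11431 genes above background, 3027 were called (26.5%), 1341 of them higher in KO cells (11.7%) and 1686 lower (14.7%), and over all 18194 genes the share called was 17.6%. The difference exceeded 2-fold in 1663 called genes. In 4540 genes (39.7%) no array of one line fell within the range of the other line. That share is a description with no test, since 3 arrays can lie apart from 3 others without a true difference. Large differences ran mostly in the direction of a lower level in KO cells, with 53 genes at least 8-fold higher and 207 at least 8-fold lower, and 7 at least 32-fold higher and 42 at least 32-fold lower. Among called genes 171 read above background only in KO cells and 505 only in WT cells. Genes above background in both lines divided almost evenly, with 1170 called higher and 1181 called lower.

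When arrays were scaled to equal medians, the median of all genes shifted by 0.213 on the log2 scale and 2450 genes were called higher and 1267 lower (65.9% higher, against 44.3% in the data as deposited), so shares of higher and lower calls hold relative to the authors' scaling. A fit on the 6 compared arrays alone called 1142 genes, 368 higher and 774 lower, of which 1105 were among the 3027. With the replicate number as a block the fit to all arrays called 3048 genes, and the fit to the 6 arrays alone called 351. That last fit called 105 of the 279 genes named here as called, and its losses are not repeated beside each gene.

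**Figure D1:**
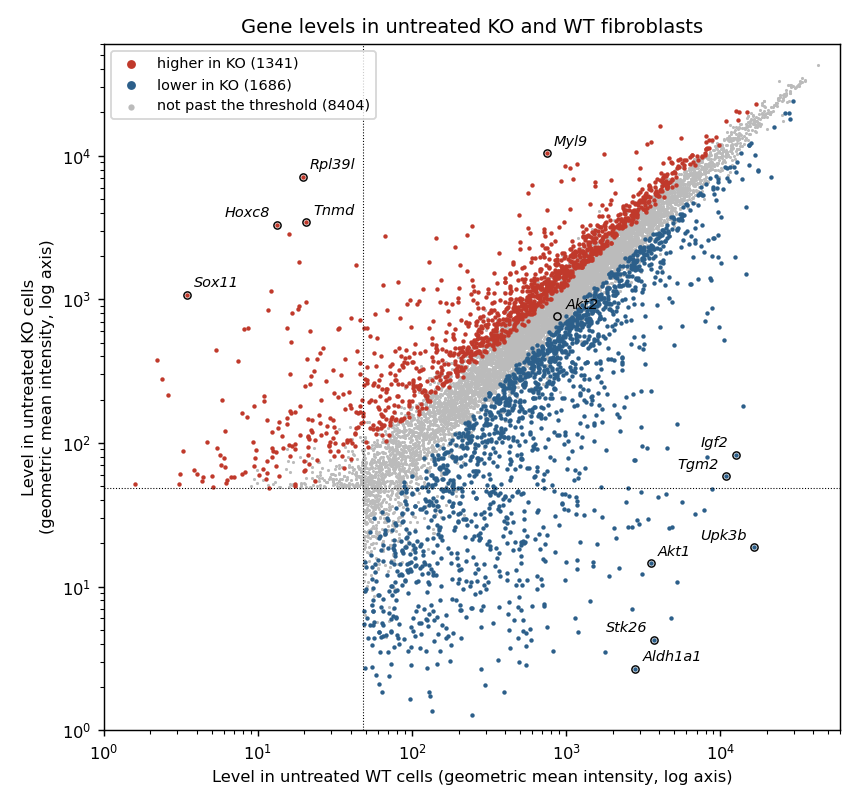
Level of each of the 11431 genes above background in untreated KO cells (vertical axis) against untreated WT cells (horizontal axis), as geometric mean intensity of 3 arrays on log axes, with dotted lines at the background of 48.31. Red points are the 1341 genes called higher in KO, blue points the 1686 called lower, and circles mark named genes, with Akt1 and Upk3b at the lower right and Rpl39l, Hoxc8, Tnmd and Sox11 at the upper left.

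Called genes were ranked by fitted log2 difference, in each direction, only where the KO and WT arrays did not overlap. Lack of overlap was thus fixed by the choice for genes named by this ranking. The genes with the largest fitted log2 rise in KO cells included a ribosomal protein paralog, transcription factors and cell surface proteins. Most were below background in WT cells, where the fitted value depends on signal near 0, so their lower bounds give no rank against genes measured in both lines. Rpl39l, a ribosomal protein paralog that is known from testis, read 7286, 7627 and 6564 in KO cells, against 19.6, 36.4 and 10.5 in WT cells. The gene was at least 148-fold higher (8.51 ± 0.57, adjusted p = 1.7e-09). Sox11, a transcription factor of neural progenitors and embryonic mesenchyme, read 839.7, 819.8 and 1815 in KO cells, against 2.73, 1.19 and 12.8 in WT cells. All 6 probe sets of Sox11 were called higher, and the gene was at least 22.3-fold higher (8.28 ± 0.97, adjusted p = 2.9e-06). Zic1, a zinc finger factor of the dorsal neural tube and somites, read 2867, 2709.9 and 2993 in KO cells, against 18.4, 13.6 and 16.2 in WT cells (at least 59.1-fold higher, 7.49 ± 0.63, adjusted p = 4.3e-08). Tnmd, which encodes the tendon membrane protein tenomodulin, read 3399.9, 3325 and 3645 in KO cells, against 16.2, 34.6 and 15.1 in WT cells. It stood at least 71.5-fold above background in KO cells alone (7.41 ± 0.44, adjusted p = 3.7e-10). Epha3, an ephrin receptor (375 against 2.22 in level, KO against WT), and Cdh10, a cadherin (278 against 2.39), rose by at least 7.76-fold and at least 5.76-fold. Ripk3, the kinase that starts necroptosis, read 1261, 1446 and 825 in KO cells, against 3.17, 27.3 and 21.1 in WT cells. No WT array reached background, and the rise was at least 23.7-fold (6.55 ± 0.63, adjusted p = 2.5e-07). Slc5a7, a choline transporter, was at least 17.3-fold higher, Syt13, a synaptotagmin, was at least 17.7-fold higher, and Cnrip1, a protein that binds the cannabinoid receptor tail, was at least 12.8-fold higher. Srpx2, Ppp1r14a, AI467606 and Tent5a, a poly(A) polymerase, were called in the same direction, by at least 9.22-fold, 4.43-fold, 13-fold and 16.7-fold. The homeobox gene En1 was at least 7.73-fold higher (5.66 ± 1.02, adjusted p = 0.0004), but its adjusted p was 0.05 on the 6 compared arrays alone.

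The genes with the largest fitted log2 fall in KO cells included a retinoid enzyme, kinases, surface proteins and a transglutaminase. Aldh1a1, which makes retinoic acid from retinal, read 1.54, 4.55 and 2.75 in KO cells, against 3415, 2502 and 2549.7 in WT cells. The arrays were far apart, and the gene was at least 57.8-fold lower (-10.02 ± 0.91, adjusted p = 1e-07). Stk26, a kinase of the germinal centre kinase family, read 2.92, 3.56 and 7.49 in KO cells, against 5297, 3807 and 2557 in WT cells, and was at least 77-fold lower (-9.77 ± 0.95, adjusted p = 2.6e-07). Tgm2, the transglutaminase that cross-links matrix proteins, read 52, 98.6 and 39.5 in KO cells, against 11397, 10071 and 10967 in WT cells. By its mean it lay just above background in KO cells and was 184-fold lower by the means (-7.52 ± 0.39, adjusted p = 6.2e-11), with 5 probe sets called. Podxl, an anti-adhesive sialomucin of podocytes and mesothelium, was at least 181-fold lower (47.7 against 8751). Myrf, a membrane-bound transcription factor, was at least 108-fold lower (10.7 against 5204), and Reep1, a protein that shapes the endoplasmic reticulum, was at least 37-fold lower. Nkain4, a protein that binds the sodium pump, was at least 24.7-fold lower, Frmd4b, a scaffold at cell junctions, was at least 23.6-fold lower, Klhl29 was at least 8.14-fold lower and Sh3tc2 was at least 16.9-fold lower. Nts, which encodes the peptide neurotensin, read 0.809, 2.31 and 12.3 in KO cells, against 707, 2418 and 98 in WT cells, with a wide spread in both lines (at least 11.4-fold lower, -7.60 ± 1.42, adjusted p = 0.00061).

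Some genes changed greatly while staying above background in both lines, and these were picked after their values were seen. Anxa3, an annexin, read 180.4 in KO and 13918 in WT cells (77.2-fold lower), Cldn15, a claudin of tight junctions, read 48.7 in KO and 2505 in WT cells (51.5-fold lower), and Mgp, an inhibitor of calcification, read 79.7 in KO and 8178 in WT cells (103-fold lower). Kcnab1, a potassium channel subunit, was 49.3-fold lower and S100a16, a calcium-binding protein, was 32.3-fold lower. In the other direction, Abi3bp, a matrix protein, read 2760.3 in KO and 67 in WT cells (41.2-fold higher), Dpt, which encodes dermatopontin, was 19.5-fold higher, Tmem47 was 16.5-fold higher, and Gng11, a G protein subunit, was 13.2-fold higher.

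Cell type markers set the lines apart along a mesothelial axis. All 10 fibroblast markers read above background in both lines, and their summed intensity ran from 153490.3 to 161384 on KO arrays and from 144717 to 151365 on WT arrays. Only Thy1, a surface glycoprotein of fibroblasts (12077 against 3349), was called higher, and only Dcn, the proteoglycan decorin (4425 against 14620.2), was called lower. Mesothelial cells are the lining of the body cavities, and 6 of their 7 markers fell in KO cells. Upk3b, a uroplakin of mesothelium and urothelium, read 8.52, 33.7 and 23.1 in KO cells, against 18372, 16144 and 14831 in WT cells. Every KO array was below background and the gene was at least 339-fold lower (-9.77 ± 0.81, adjusted p = 3.3e-08). Wt1, a transcription factor of mesothelium and kidney, read 18.1, 46.9 and 20.5 in KO cells, against 3072, 2584 and 2005 in WT cells (at least 52.1-fold lower, -6.60 ± 0.66, adjusted p = 3.8e-07). Upk1b was at least 99.9-fold lower, Lrrn4, a leucine-rich repeat membrane protein, was at least 161-fold lower, Gpm6a, a membrane glycoprotein, was at least 99.4-fold lower, and Msln, which encodes mesothelin, was at least 9.99-fold lower. The 7 markers summed to between 150.3 and 276 on KO arrays and between 32004 and 43456 on WT arrays, and Krt19 was the one that did not pass the test. Both lines thus carried the listed fibroblast markers, while the WT line carried mesothelial markers as well. The fibroblast sums came mostly from Col1a1, Col1a2, Col3a1, Vim and S100a4, so they say little of Thy1 and Dcn, the markers that were called. In bulk samples a smaller share of cells of a type and less RNA per cell cannot be told apart, and the part of mesothelial cells in the differences below was not tested.

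Markers of other cell types were called in single cases. None of the endothelial markers read above background in KO cells and only Kdr, a receptor of VEGF, did in WT cells (25.7 against 287, called lower with an adjusted p of 0.075 on the 6 compared arrays). No skeletal muscle or pluripotency marker read above background in either line, and Ptprc, the defining marker of leukocytes, was below background in both. Haematopoietic markers summed to between 584 and 736 on KO arrays and between 1208 and 1819 on WT arrays, and of 8 of them Cd14, a receptor on myeloid cells that fibroblasts can also express, and Cd68 were called lower. Smooth muscle markers summed to between 44669 and 48682 on KO arrays and between 33671 and 39525 on WT arrays. These sums were mostly Acta2 and Tagln, which were not called (limma adjusted p 0.091 and 0.68). Cnn1 alone of these 5 was called, and it was lower in KO cells (-3.08), against the direction of the sum. Epithelial markers summed to between 171 and 293 on KO arrays and between 753 and 1379 on WT arrays, mostly through Krt14, a basal keratin (7.5 against 719.8, at least 14.9-fold lower, -6.59 ± 0.96, adjusted p = 4e-05). Of 5 tendon markers only Tnmd was called. Of the neural markers Tubb3, a neuronal tubulin, was the one called, and it rose (633 against 33.8). Sox9, a factor of cartilage and of tendon progenitors, was called higher too (848 against 326, adjusted p 0.094 on the 6 compared arrays). Alpl, a phosphatase of bone (164 against 597), Fabp4, of fat cells (515 against 907), and the keratin Krt8 (14.4 against 76.5, at least 1.58-fold lower) were called lower. Their calls were lost without WT replicate 1 (0.066, 0.082 and 0.07), those of Fabp4 and Krt8 also without KO replicate 0 (0.054 and 0.21), and that of Krt8 without WT replicate 0 or 2 (0.065 and 0.067).

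**Figure D2:**
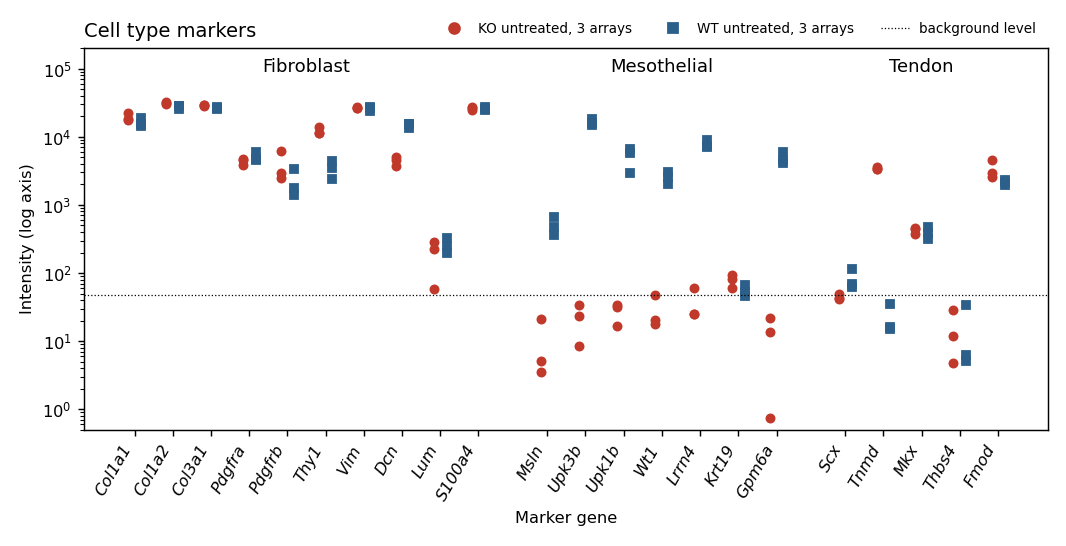
Intensity on a log axis of fibroblast, mesothelial and tendon markers on each of 3 untreated KO arrays (red circles) and 3 untreated WT arrays (blue squares), with the background as a dotted line. Fibroblast markers lie above background in both lines, with Lum the dimmest and near background on 1 KO array (57.4). Of the mesothelial markers 6 of 7 are bright only in WT cells, and Tnmd is bright only in KO cells.

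HOX genes encode homeodomain factors that mark position along the body axis, and fibroblasts keep such a code in culture. Of the 20 HOX genes above background 17 were called (85%, against 26.5% of all genes above background), 7 higher and 10 lower in KO cells. This list and those below were chosen with earlier results of these data known. Their shares and medians are therefore descriptions with no test, and each share called is to be read beside that 26.5%. Directions differed between the clusters. In the HOXC cluster, on chromosome 15, 6 of 7 genes rose. Hoxc8 read 3260, 3076 and 3618 in KO cells, against 22.3, 16.4 and 6.4 in WT cells, and was at least 68.5-fold higher (7.96 ± 0.80, adjusted p = 4.1e-07). Hoxc9 read 1715, 1940.4 and 1834 in KO cells, against 12.6, 7.54 and 65.8 in WT cells, where the third WT array was just above background, and was at least 37.8-fold higher (6.63 ± 0.54, adjusted p = 2.3e-08). Hoxc6 read 1729.8, 1808 and 1655 in KO cells, against 33.9, 40.5 and 58 in WT cells (at least 35.8-fold higher). Hoxc5 was at least 19.9-fold higher, Hoxc4 was at least 4.4-fold higher and Hoxc10 was at least 3.74-fold higher, whereas Hoxc13, at the end of the cluster, fell (10.8 against 106).

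In the HOXB cluster, on chromosome 11, 5 of 6 genes above background fell and none rose. Hoxb2 read 17.5, 33.5 and 5.59 in KO cells, against 1344, 1154 and 629 in WT cells (at least 20.5-fold lower, -6.06 ± 0.76, adjusted p = 7.5e-06). Hoxb3 was at least 13.6-fold lower, Hoxb4 was at least 10.8-fold lower, Hoxb5 was at least 5.05-fold lower and Hoxb6 was at least 6.34-fold lower, with no overlap between the arrays in any of them. In the HOXA cluster, on chromosome 6, Hoxa2, Hoxa3, Hoxa4 and Hoxa5 fell and Hoxa7 rose. Hoxa5 read 261, 257 and 324 in KO cells, against 1741, 1554 and 1016 in WT cells (5.02-fold lower, -2.33 ± 0.21, adjusted p = 1e-07) and Hoxa3 was 4.85-fold lower. The calls of Hoxa2 and Hoxc13 had adjusted p values of 0.13 and 0.1 on the 6 compared arrays, and that of Hoxa7 (0.92 ± 0.30, adjusted p = 0.04) was lost without KO replicate 0 (0.17), KO replicate 1 (0.1) and each WT replicate (0.069, 0.071 and 0.12). Of the HOXD cluster, on chromosome 2, only Hoxd8 read above background, and it was not called, with 60.9, 47.2 and 39.1 in KO cells, against 207, 188 and 99 in WT cells (adjusted p = 0.14, or 0.046 without the 5 arrays of the series that stood apart).

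**Figure D3:**
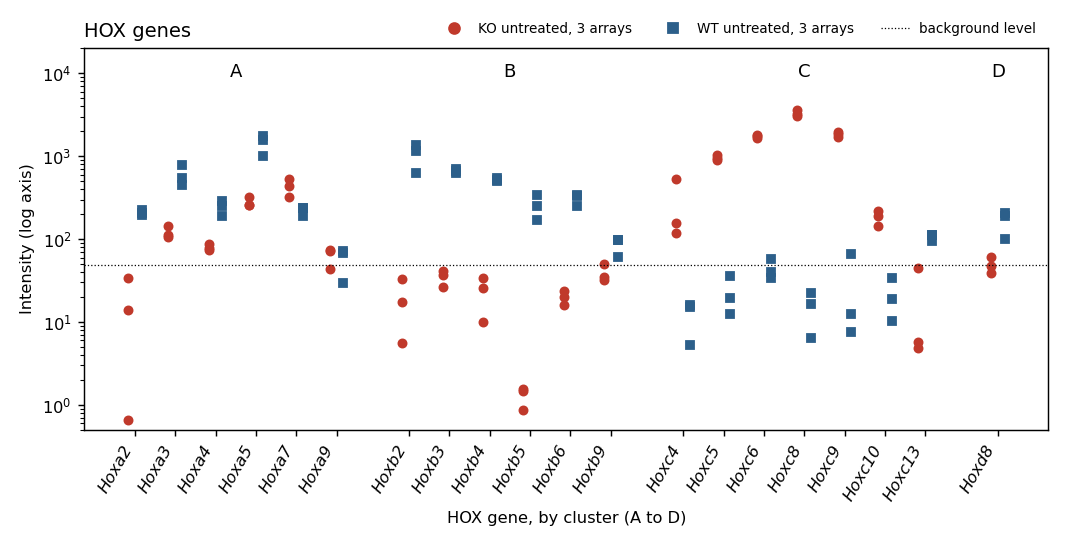
Intensity on a log axis of the 20 HOX genes above background, ordered by cluster, on 3 untreated KO arrays (red circles) and 3 untreated WT arrays (blue squares), with the background as a dotted line. Genes of the B cluster lie above background in WT cells and mostly below it in KO cells, and the C cluster from Hoxc4 to Hoxc10 shows the opposite.

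Other patterning factors diverged as well, with 15 of 49 higher and 20 lower (71.4% called). Gata6, a zinc finger factor of heart, gut and mesothelium, read 32, 7.04 and 46.2 in KO cells, against 2524, 1842 and 1974 in WT cells (at least 43.3-fold lower, -6.58 ± 0.58, adjusted p = 6.3e-08). The arrays of the lines were well apart. Foxf1, a target of Hedgehog signals in gut mesenchyme, was at least 12.5-fold lower (7.37 against 603), Tcf21, a basic helix-loop-helix factor of epicardium and visceral mesenchyme, was at least 32.9-fold lower (19.9 against 1589.6) and Foxp2 was at least 6.53-fold lower. Meis2 (-1.86 ± 0.12) and Meis1 (-1.54 ± 0.19), cofactors of HOX proteins, also fell, as did Barx1, a homeobox factor of stomach mesenchyme (at least 2.29-fold lower).

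Other factors of this list rose. Shox2, a homeobox factor of the proximal limb, read 1699, 1894 and 1666 in KO cells, against 452, 534 and 375 in WT cells (3.9-fold higher, 1.96 ± 0.16, adjusted p = 2e-08). Ebf1, a factor of B cells and of fat and bone precursors, read 884, 828 and 1296 in KO cells, against 70.8, 64.4 and 195 in WT cells (10.2-fold higher), and Eya1, a cofactor of homeobox proteins of the eye and kidney, was at least 8.76-fold higher. Tbx15 (1.49 ± 0.18), a T-box factor of limb and skin, Irx1 (1.42 ± 0.23), Irx5 (1.15 ± 0.26), Lhx9 (2.79 ± 0.61) and Zic4 (3.69 ± 0.81) rose too. So did Snai1 (2.01 ± 0.36), Snai2 (0.88 ± 0.10) and Twist2 (1.05 ± 0.16), which repress epithelial genes.

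Wnt proteins act through Frizzled receptors, and R-spondins raise the number of these receptors at the membrane. Of 38 Wnt pathway genes above background 19 fell and 5 rose in KO cells (63.2% called), with a median of -1.01, against 0.02 over all genes above background. Among the ligands, Wnt4 read 40.5, 44.3 and 66.1 in KO cells, against 1899.8, 1477 and 1715 in WT cells, and was 34.4-fold lower (-5.10 ± 0.39, adjusted p = 1e-08). Wnt11 (-2.18 ± 0.27) and Wnt5a (-1.30 ± 0.23) also fell, and no KO array of Wnt4 or Wnt11 reached a WT array. The R-spondin genes Rspo1 and Rspo2 moved in opposite directions. Rspo1 read 12, 36.6 and 4.23 in KO cells, against 2999, 2830.3 and 3539 in WT cells (at least 64.4-fold lower), while Rspo2 read 2234, 2349.9 and 2403 in KO cells, against 111, 294 and 211 in WT cells (12.3-fold higher, 3.62 ± 0.41, adjusted p = 1.7e-06). Of the receptors, Fzd6 fell (238 against 1284, -2.43 ± 0.17, adjusted p = 4.4e-09). The secreted antagonists Sfrp1 (13.5-fold lower), Sfrp4 (7.07-fold lower) and Dkk3 (2.91-fold lower) fell as well. Of the targets that feed back on the pathway, Nkd1 was at least 7.43-fold lower and Axin2 was 4.23-fold lower (-2.08 ± 0.38, adjusted p = 0.00043). The calls of Wnt5a and Axin2 had adjusted p values of 0.067 and 0.065 on the 6 compared arrays.

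TGF-beta and BMP ligands signal through SMAD proteins, and 8 of 42 genes of this list rose while 13 fell (50% called). Bmp4 read 790, 847 and 770.1 in KO cells, against 7398, 8724 and 8522 in WT cells, about an order of magnitude apart with no overlap (10.2-fold lower, -3.35 ± 0.29, adjusted p = 5.4e-08). Bmp2 was at least 5.8-fold lower, and the ligands Tgfb2 (-1.38 ± 0.22) and Tgfb3 (4-fold lower) fell. Id2, a target of BMP signals, read 206, 172 and 264 in KO cells, against 1585, 1919 and 1043 in WT cells (6.97-fold lower). Against these, the BMP antagonist Grem1 read 11977, 11886 and 13780.1 in KO cells, against 2923, 2765 and 5517 in WT cells (3.53-fold higher, 1.82 ± 0.34, adjusted p = 0.0006), the receptor gene Acvr2a rose (956 against 339), and so did Tgfbi, a matrix protein that TGF-beta induces (1.78 ± 0.20). Without KO replicate 2 or without WT replicate 0 the number of higher genes was 5 in place of 8.

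The insulin-like growth factors are activators of the PI3 kinase and PKB pathway, and genes of their axis were called mostly lower. Of 17 genes of this axis above background 6 fell and 2 rose (47.1% called, median -0.80). Igf2, the imprinted fetal growth factor, read 74.5, 96.5 and 79.4 in KO cells, against 14938, 14159 and 9448 in WT cells. It was 152-fold lower in KO cells, where it stayed just above background (-7.25 ± 0.53, adjusted p = 5.8e-09). Of the IGF binding proteins, which hold the ligand outside the cell, Igfbp2 read 25.4, 17.2 and 39.2 in KO cells, against 3744, 3357 and 1512 in WT cells (at least 55.2-fold lower), Igfbp4 was 20.4-fold lower (520.4 against 10603), Igfbp6 was 15.3-fold lower and Igfbp3 was 8.68-fold lower. Pappa, the protease that frees the ligand from Igfbp4, ran the other way. It read 514, 525 and 1861 in KO cells, against 48.1, 71 and 54.2 in WT cells (13.9-fold higher, 3.80 ± 0.67, adjusted p = 0.00033).

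Of 21 imprinted genes above background, 7 fell and 2 rose (42.9% called, median -0.71, or -0.39 with low levels set to background). Grb10, which encodes an adaptor that restrains insulin and IGF receptors, read 54.1, 56.4 and 24.6 in KO cells, against 3798, 3157 and 5091 in WT cells (at least 81.5-fold lower, -6.55 ± 0.41, adjusted p = 8.1e-10). Nnat, which encodes neuronatin, was at least 39.3-fold lower (11.8 against 1899.6), Peg3 was 4.96-fold lower and Ndn, which encodes necdin, was 2.95-fold lower. Slc38a4, an amino acid transporter, rose instead, with 3197, 3126 and 2219.8 in KO cells, against 186, 553 and 114 in WT cells (12.4-fold higher).

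Growth factors and their receptors moved in both directions, with 6 of 35 higher and 9 lower (42.9% called). Pdgfc, a ligand of the PDGF alpha receptor, read 4276, 4366 and 3990.1 in KO cells, against 793, 856 and 632 in WT cells (5.58-fold higher, 2.48 ± 0.13, adjusted p = 7.5e-11). Fgf7, the keratinocyte growth factor, was 3.71-fold higher (10569 against 2845) and Vegfc, a lymphatic growth factor, was 2.75-fold higher. Egfr, the EGF receptor, read 363, 329 and 383 in KO cells, against 1539, 1540.1 and 1899 in WT cells, without overlap (4.62-fold lower, -2.21 ± 0.13, adjusted p = 2.9e-10). The receptor gene Met (-1.45 ± 0.15), Fgf18 (at least 20.3-fold lower), Pdgfb (at least 6.62-fold lower) and Kitl, the ligand of KIT (7.17-fold lower), fell. By the mean of its probe sets the adjusted p of Met was 0.099.

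Notch, Hedgehog and Eph signalling had 6 of 29 genes higher and 9 lower (51.7% called). Notch1, a receptor, read 573, 475 and 565 in KO cells, against 92.6, 132 and 201 in WT cells (3.97-fold higher), beside the rise of Epha3. Epha2 fell (228 against 651, -1.51 ± 0.20), as did Efna5, an ephrin ligand (670.3 against 2080.1, adjusted p 0.053 on the 6 compared arrays). The lower calls numbered 4 without KO replicate 0 and 5 without KO replicate 1, WT replicate 1 or WT replicate 2, and without the 5 arrays that stood apart the higher calls numbered 3. The fit to the 6 compared arrays alone called 3 genes of this list higher and 1 lower.

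ERK signalling induces its own inhibitors, and these were mostly lower in KO cells. Of 16 feedback genes above background 8 fell and 1 rose (56.2% called, median -0.68). Dusp5, a nuclear phosphatase of ERK, read 133, 120.3 and 91 in KO cells, against 1020.3, 829 and 1126 in WT cells (8.68-fold lower, -3.12 ± 0.38, adjusted p = 5e-06), and Dusp4 read 125, 119.9 and 114 in KO cells, against 1315, 982 and 729 in WT cells (8.19-fold lower). No KO array reached the WT range in either. Il17rd, a membrane inhibitor of FGF signals, fell (-1.80 ± 0.25), and Spry2, a Sprouty protein, read 321 against 809.5 (-1.33 ± 0.25), though by the mean of its probe sets its adjusted p was 0.26.

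Immediate early genes, which serum and growth factors induce within minutes, were called in 15 of 22 cases (68.2%), 9 higher and 6 lower. Myc read 1321, 1328 and 1190.1 in KO cells, against 626, 710.4 and 459 in WT cells (2.17-fold higher, 1.12 ± 0.22, adjusted p = 0.001). Ier2 (1.08 ± 0.16), Nr4a2 (1.35 ± 0.24) and Klf6 (0.91 ± 0.17) rose with it, and Egr2 was at least 1.82-fold higher (adjusted p 0.075 on the 6 compared arrays). Klf4, a Krüppel-like factor that restrains proliferation, fell, with 171, 146 and 180.3 in KO cells, against 1107, 685 and 814 in WT cells (5.15-fold lower), beside the fall of Id2. The lower calls numbered 3 without WT replicate 0.

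The components between PI3 kinase and PKB had 3 of 25 genes called higher and 6 lower (36% called, against 26.5% of all genes above background, median 0.06). Sgk3, a kinase related to PKB with overlapping substrates, read 303, 310.2 and 277 in KO cells, against 78.1, 71.8 and 44.5 in WT cells (4.71-fold higher, 2.23 ± 0.24, adjusted p = 9.6e-07). Phlpp1, a phosphatase that removes an activating phosphate from PKB, read 912, 898 and 836 in KO cells, against 468, 367 and 418 in WT cells (2.12-fold higher). Both rose without overlap. Ppp2r2b, a regulatory subunit of protein phosphatase 2A, fell below background, with 5.8, 12.4 and 23.4 in KO cells, against 457, 441 and 259 in WT cells (at least 7.73-fold lower). The PI3 kinase catalytic subunit gene Pik3cb (97 against 268, adjusted p 0.053 on the 6 compared arrays), the adaptor gene Gab1 (-1.09 ± 0.20) and Phlda1 (-1.14 ± 0.25) fell.

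Of 22 genes of the mTOR complexes and the TSC brake 1 rose and 4 fell (22.7% called, against 26.5% of all genes above background). Prr5l, a partner of mTOR complex 2, was 6.11-fold lower (144 against 877) and Ddit4l, a stress-induced inhibitor of mTOR, was at least 5-fold lower. Rhebl1, a GTPase like the mTOR activator RHEB, rose (0.72 ± 0.13, adjusted p 0.062 on the 6 compared arrays), and Sesn3, a stress-induced inhibitor of mTOR, fell (-0.73 ± 0.19). Without WT replicate 1 the call of Sesn3 was lost (adjusted p 0.084) and the lower calls of this list numbered 2.

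FOXO factors are excluded from the nucleus when PKB phosphorylates them. Of 22 FOXO genes and targets 3 rose and 4 fell (31.8% called). Fbxo32, the ubiquitin ligase atrogin-1 and a textbook FOXO target in muscle, read 1434, 1421 and 2536 in KO cells, against 148, 247 and 230 in WT cells (8.49-fold higher, 3.09 ± 0.43, adjusted p = 2.8e-05). Sod2, the mitochondrial superoxide dismutase, read 9015, 9431 and 8184 in KO cells, against 3664, 4833 and 4338 in WT cells (2.08-fold higher), and Klf6 rose as above. Ccnd1, which encodes cyclin D1 and is repressed by FOXO factors, read 1856, 1770 and 2353 in KO cells, against 6588, 5428 and 8142 in WT cells (3.35-fold lower, -1.74 ± 0.18, adjusted p = 4.7e-07). Pdk4, a kinase that turns down pyruvate dehydrogenase and is a FOXO target, moved against Fbxo32, and was 3.53-fold lower (75.4 against 266). The list held calls in both directions, and its share of calls was near the 26.5% of all genes above background.

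Of 34 mitotic genes above background 10 were higher and none lower (29.4% called, median 0.43), and of 36 replication genes 4 were higher and none lower (11.1% called, median 0.30), against 11.7% called higher and a median of 0.02 over all genes above background. The share of replication genes called higher was thus no larger than that of all genes. Ttk, a kinase of the spindle checkpoint, read 1983, 2092 and 1771 in KO cells, against 928, 889.7 and 1090 in WT cells (2.01-fold higher, 1.01 ± 0.12, adjusted p = 3.5e-06). Ndc80 (1766 against 883) and Nuf2 (1227 against 523), partners in the kinetochore, rose by 2-fold or more without overlap, and Bub1, another checkpoint kinase, read 3187 against 1665 (adjusted p 0.22 by the mean of its probe sets). Among replication genes, Uhrf1, which guides maintenance DNA methylation (0.81 ± 0.14), Rrm2, a subunit of ribonucleotide reductase (0.72 ± 0.16), Ccne1, which encodes cyclin E1 (0.99 ± 0.25), and Mcm5, of the replicative helicase (0.57 ± 0.15), were called. The highest adjusted p over the alternatives was 0.063 for Uhrf1, 0.074 for Rrm2, 0.15 for Ccne1 and 0.18 for Mcm5, with losses without KO replicate 0 or 1 for Mcm5 (0.064 each) and without WT replicate 0 for Ccne1 (0.05).

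These counts depended on the arrays. Mitotic genes called higher numbered 6 without KO replicate 0 and 21 without the 5 arrays of the series that stood apart, and replication genes 7 without KO replicate 2, 7 without WT replicate 2 and 16 without the 5 arrays. The fit to the 6 compared arrays alone called 4 mitotic genes and 0 replication genes higher, against 368 of all genes above background.

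Of 34 p53 targets above background 3 rose and 7 fell (29.4% called, near the 26.5% of all genes above background). Dram1, a lysosomal regulator of autophagy, read 2941, 2990.2 and 2863 in KO cells, against 613, 778 and 767 in WT cells (4.1-fold higher, 2.03 ± 0.17, adjusted p = 2.4e-08). Ephx1, an epoxide hydrolase, was 3.7-fold lower, and Psrc1, a spindle protein, was 2.33-fold lower. Plk2 (2827 against 1379) and Trp53inp1 (205 against 939) were called in opposite directions, higher and lower, but not by the mean of their probe sets (adjusted p 0.39 and 0.073). Cdkn1a, which encodes the inhibitor p21, read 287, 328 and 138 in KO cells, against 813, 427 and 599 in WT cells (-1.33 ± 0.39), a fall that was not called without KO replicate 2 (adjusted p 0.12) or WT replicate 0 (0.1). Of 18 genes of the p53, INK4 and RB pathway 5 fell and none rose (27.8% called, again near 26.5%, with 3 lower without KO replicate 2). Next to Ccnd1 these were Cdk6 (1403 against 2899), Cdkn2c (954 against 1452), E2f2 (39.3 against 123), and 1 other gene. The adjusted p of the first 3 on the 6 compared arrays was 0.1, 0.1 and 0.16. The call of E2f2 was lost without KO replicate 1, KO replicate 2 or WT replicate 2 (0.083, 0.08 and 0.17).

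Of 11 BCL2 family genes 3 rose and none fell (27.3% called, near the 26.5% of all genes above background). Bid, which links death receptors to mitochondria, read 2417, 2423 and 1886 in KO cells, against 550.4, 626 and 371 in WT cells (4.42-fold higher, 2.14 ± 0.19, adjusted p = 8.5e-08), and Bok, a pore-forming relative of BAX, read 1224, 1208 and 1457 in KO cells, against 256, 385 and 464 in WT cells (3.61-fold higher), with Bbc3, a BH3-only activator of cell death and p53 target, as the third (1.24 ± 0.27, adjusted p 0.17 on the 6 compared arrays).

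Genes of the extracellular matrix moved in both directions. Of 23 collagen chain genes 6 rose and 4 fell (43.5% called). Col6a3, a chain of the microfibrillar collagen VI, read 9679, 10136 and 11066 in KO cells, against 1523, 1318 and 2695 in WT cells (5.86-fold higher, 2.55 ± 0.22, adjusted p = 5.4e-08). Col7a1, the anchoring fibril collagen, was 10.1-fold higher (1188 against 118), Col8a1 was 2.68-fold higher, Col5a1 was 2.1-fold higher and Col23a1, a transmembrane collagen, was at least 6.26-fold higher. Col4a6, a chain of basement membranes, read 35.7, 55 and 9.74 in KO cells, against 1393, 1262 and 411 in WT cells (at least 18.6-fold lower), and Col11a1 was at least 20.4-fold lower. The lower calls numbered 2 without KO replicate 2. The main fibrillar chains Col1a1, Col1a2 and Col3a1 were not called, although the mean of its probe sets gave Col1a2 an adjusted p of 0.02 and equal array medians gave Col3a1 one of 0.045.

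Proteoglycans and adhesive matrix proteins had 8 of 33 genes higher and 8 lower (48.5% called). Vcan, the proteoglycan versican, read 9107, 9559 and 7542 in KO cells, against 905, 2079 and 871 in WT cells (7.37-fold higher, 2.88 ± 0.41, adjusted p = 3.6e-05). Tnc, which encodes tenascin C, read 6881, 6689 and 7108 in KO cells, against 994, 1396 and 976 in WT cells (6.23-fold higher), Has2, the main hyaluronan synthase of mesenchyme, read 7110, 6793 and 3411 in KO cells, against 515, 877 and 400.4 in WT cells (9.69-fold higher), and Postn, which encodes periostin, was 3.99-fold higher. None of these arrays overlapped. Lama5, a laminin chain of epithelial basement membranes, fell, with 84, 133 and 212 in KO cells, against 1413, 1246 and 1982 in WT cells (11.4-fold lower), and the small proteoglycans Ogn (5.17-fold lower) and Dcn (3.3-fold lower) fell as well.

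Of 14 genes of elastic fibres and lysyl oxidases 4 rose and 4 fell (57.1% called). Loxl1, which cross-links elastin, read 617, 731 and 787 in KO cells, against 7386, 7119 and 9533 in WT cells (11.2-fold lower, -3.49 ± 0.20, adjusted p = 2.5e-10). Efemp1, which encodes fibulin 3, read 1.07, 16.9 and 18.8 in KO cells, against 1956, 4118 and 2392 in WT cells (at least 55.5-fold lower), and Mfap5, of microfibrils, was 3.2-fold lower. Mfap4, a ligand of integrins on elastic fibres, moved the other way and was at least 18.7-fold higher, with Loxl4 (1.16 ± 0.20) and Emilin1 (0.95 ± 0.22).

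Of 23 metalloproteases and their inhibitors 5 rose and 7 fell (52.2% called). Timp3, an inhibitor bound to matrix, read 634, 648 and 629 in KO cells, against 11233, 9064 and 9348 in WT cells (15.4-fold lower, -3.95 ± 0.20, adjusted p = 4.1e-11). The secreted proteases Mmp3 (1417 against 8492), Mmp8 (at least 14.9-fold lower), Mmp9 (at least 5.36-fold lower), Mmp10 (at least 11-fold lower) and Mmp13 (99 against 629) fell. Adamts1, which cleaves versican, rose, with 8279.6, 9606 and 6813 in KO cells, against 1077, 1682 and 661 in WT cells (7.68-fold higher), and so did Mmp23 (at least 7.94-fold higher) and Adamts12 (1.57 ± 0.29).

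Integrins and cadherins had 4 of 25 genes higher and 9 lower (52% called). Pcdh18 (2093 against 368) and Pcdh19 (3197 against 894), which are protocadherins, rose beside Cdh10, while Pcdh7 fell (199.6 against 1307). Itga3, a laminin receptor, read 269, 307 and 569 in KO cells, against 1154, 1105 and 1778 in WT cells (3.64-fold lower, -1.86 ± 0.31, adjusted p = 0.00016), Itga6 (-1.08 ± 0.21) and Cdh3, which encodes P-cadherin (-1.03 ± 0.19), fell, and Icam1 was at least 1.26-fold lower.

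Contractile genes moved apart from each other, 4 of 18 higher and 2 lower (33.3% called). Myl9, the regulatory light chain of smooth muscle myosin, read 9762, 9566 and 11987 in KO cells, against 756, 1091 and 501 in WT cells (13.9-fold higher, 3.80 ± 0.29, adjusted p = 9.7e-09), and Actg2, an actin of visceral smooth muscle, read 2034, 2008 and 4584 in KO cells, against 157, 94.9 and 195 in WT cells (18.6-fold higher). Csrp2, a LIM protein of smooth muscle, rose (1.01 ± 0.13). Cnn1, which encodes calponin, read 141, 135 and 193 in KO cells, against 1589.7, 1157 and 1200.2 in WT cells (8.43-fold lower), and Smtn, which encodes smoothelin, was 3.28-fold lower, both without overlap, and without the 5 arrays that stood apart 4 genes were called lower.

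The called genes of detoxification were mostly lower in KO cells. Of 35 genes of glutathione metabolism and targets of the factors AHR and NRF2, 18 fell and 3 rose (60% called, median -0.46). Ahr, the receptor of dioxin and related aromatic compounds, read 66.3, 87.1 and 77.2 in KO cells, against 3158, 3084 and 2115 in WT cells (35.9-fold lower, -5.17 ± 0.22, adjusted p = 8.8e-12). Cyp1b1, a cytochrome P450 and target of this receptor, read 1675, 1899 and 1774 in KO cells, against 8687, 12716 and 9329.6 in WT cells (5.67-fold lower), and Tiparp, another target, was 2.17-fold lower. The lines did not overlap in any of these. The glutathione transferases Gsta4 (38.7-fold lower), Gsta3 (at least 11.3-fold lower), Mgst1 (6.31-fold lower) and Gstm2 (2.57-fold lower) fell, while Gsto1 rose (2.73-fold higher). Probe sets of the closely related Gstm genes may share signal.

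Retinoic acid is made from retinol by dehydrogenases and carried to its receptors by binding proteins. Of 21 genes of retinoid and steroid metabolism 10 fell and 2 rose (57.1% called, median -0.48). Beside Aldh1a1, the embryonic enzyme gene Aldh1a2 read 35.4, 28.8 and 25.1 in KO cells, against 4141, 3538 and 2713 in WT cells (at least 70.6-fold lower, -6.86 ± 0.69, adjusted p = 4e-07). Rdh10, which makes retinal (4.06-fold lower), Dhrs3, which reverses this step (13.2-fold lower), the binding proteins Crabp1 (11-fold lower) and Crabp2 (at least 30.9-fold lower), the carrier Rbp4 (at least 5.57-fold lower) and the receptor gene Rarb, itself a target of retinoic acid (at least 8.53-fold lower), fell. With low levels set to background the median of this list was -0.28. Ptgis, the prostacyclin synthase, was at least 117-fold lower (38.5 against 5666).

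All 11 MHC and complement genes above background were called, 8 lower and 3 higher. Serping1, the C1 inhibitor, read 97.1, 75 and 106 in KO cells, against 3578, 3669.6 and 2807 in WT cells (36.3-fold lower, -5.18 ± 0.28, adjusted p = 7.7e-11), and C1s1, a protease of the classical pathway, read 831, 869.7 and 908 in KO cells, against 9051, 10312 and 7181 in WT cells (10.1-fold lower). C1ra (3.32-fold lower), Masp1 (2.39-fold lower), C2 (at least 5-fold lower), the decay accelerating factor Cd55 (at least 31.1-fold lower) and Clu, which encodes clusterin (13.2-fold lower), fell with them. The class I genes ran the other way. H2-D1 read 4641, 4836 and 3442 in KO cells, against 973, 1025 and 1204 in WT cells (4.01-fold higher), and H2-K1 (2231 against 1059) and B2m (17465 against 10817) rose, with adjusted p values of 0.075 and 0.23 on the 6 compared arrays. The class I genes are similar in sequence, so their probe sets may share signal.

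Interferon-stimulated and nucleic acid sensing genes had 6 of 32 higher and 3 lower (28.1% called, near the 26.5% of all genes above background). Ifit1 (5.08-fold higher), Tap2, a peptide transporter (0.98 ± 0.24), Psmb8, of the immunoproteasome (421 against 56.2), and Cgas, the cytosolic DNA sensor (693 against 225), rose. Tlr4, the receptor of bacterial lipopolysaccharide, read 87.4, 64.6 and 74.7 in KO cells, against 516, 536 and 308 in WT cells (5.87-fold lower), and Irgm1 fell (-1.32 ± 0.20). Psmb8 had an adjusted p of 0.15 by the mean of its probe sets and Cgas 0.055 on the 6 compared arrays.

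Chemokines and targets of NF-kappaB were called in 15 of 29 cases, 7 higher and 8 lower (51.7%). Il33, an alarmin, read 60.8, 33.8 and 35.7 in KO cells, against 1007, 1921 and 784 in WT cells (at least 23.8-fold lower, -4.78 ± 0.45, adjusted p = 1.6e-07), and Tnfaip2 (12.1-fold lower), Cxcl15 (at least 35.4-fold lower), the decoy receptor Ackr3 (at least 6.55-fold lower) and Tnfaip3, an inhibitor of NF-kappaB (2.44-fold lower), fell, as did the acute phase gene Saa3 (-1.13 ± 0.14). Ccl5, a chemokine for T cells, read 319, 399 and 323 in KO cells, against 63.1, 48.2 and 66.5 in WT cells (5.88-fold higher), and Il11, a cytokine of stromal cells, was at least 1.26-fold higher. The higher calls numbered 4 without WT replicate 0.

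Of 18 genes of glycolysis and glucose uptake 5 fell and none rose (27.8% called, near the 26.5% of all genes above background). Pfkfb3, which makes an activator of phosphofructokinase, was 3.45-fold lower (179 against 616), and Slc16a1, a lactate transporter, was 2.68-fold lower. Eno2 (-1.56 ± 0.31) and Pfkp (-0.61 ± 0.13) were called lower too, with adjusted p values of 0.073 and 0.095 on the 6 compared arrays.

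Hypoxia targets had 5 of 17 genes lower and 1 higher (35.3% called), while the median of the list was 0.14, against the direction of most of these calls. Egln3, a prolyl hydroxylase of HIF, read 43.7, 64.8 and 46.9 in KO cells, against 915, 804 and 715 in WT cells (15.8-fold lower), whereas Adm, the peptide adrenomedullin, read 1906, 1491 and 2088 in KO cells, against 109.9, 163 and 117 in WT cells (14.1-fold higher, 3.82 ± 0.56, adjusted p = 4.3e-05). Car12, a carbonic anhydrase (-2.87 ± 0.55), P4ha1, a prolyl hydroxylase of collagen (-0.77 ± 0.17), and Ndrg1 (-0.87 ± 0.22) were called lower. The adjusted p was 0.051 for Car12 by the mean of its probe sets and 0.085 for P4ha1 on the 6 compared arrays.

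Lysosomal genes had 8 of 20 lower and 1 higher (45% called, median -0.40). On the 6 compared arrays alone 1 was called lower and 1 higher, against 774 lower and 368 higher of all genes above background. The one that rose was Ctsk, the collagen-degrading cathepsin K of osteoclasts and fibroblasts, with 646, 622 and 637 in KO cells, against 50.3, 41.9 and 54.1 in WT cells (13.1-fold higher, 3.71 ± 0.26, adjusted p = 2.9e-09). Tfeb, a factor that drives lysosomal genes, fell (164 against 532), as did Gusb (836 against 1582) and Cd68 (47.6 against 91.3), with adjusted p values of 0.052 and 0.11 for these last on the 6 compared arrays.

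Of 22 genes that the factor ATF4 induces in amino acid shortage 6 rose and 2 fell (36.4% called). Asns, asparagine synthetase (0.70 ± 0.15), and Cth, a cysteine-making enzyme (1.69 ± 0.37), rose, and Stc2 (-2.65 ± 0.64) and Vldlr (-1.33 ± 0.29) fell. The higher calls numbered 3 without KO replicate 2 or WT replicate 1, and Asns, Cth and Stc2 had adjusted p values of 0.092, 0.12 and 0.097 on the 6 compared arrays. That fit to the 6 arrays called 0 genes of this list higher and 1 lower.

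Rps4l, another ribosomal protein paralog, was the counterpart of Rpl39l and read 42.2, 39.1 and 19.6 in KO cells, against 7029, 7003 and 6538 in WT cells (at least 142-fold lower, -7.75 ± 0.57, adjusted p = 5.6e-09). Dnmt3a, a de novo DNA methyltransferase, was 3.44-fold lower (316 against 1089). Xist, the RNA that coats the inactive X chromosome, read 6899, 6302 and 7833 in KO cells, against 11471, 10977 and 10697 in WT cells, above background on all arrays (-0.66 ± 0.17, adjusted p = 0.0074, with 0.092 on the 6 compared arrays).

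**Figure D4:**
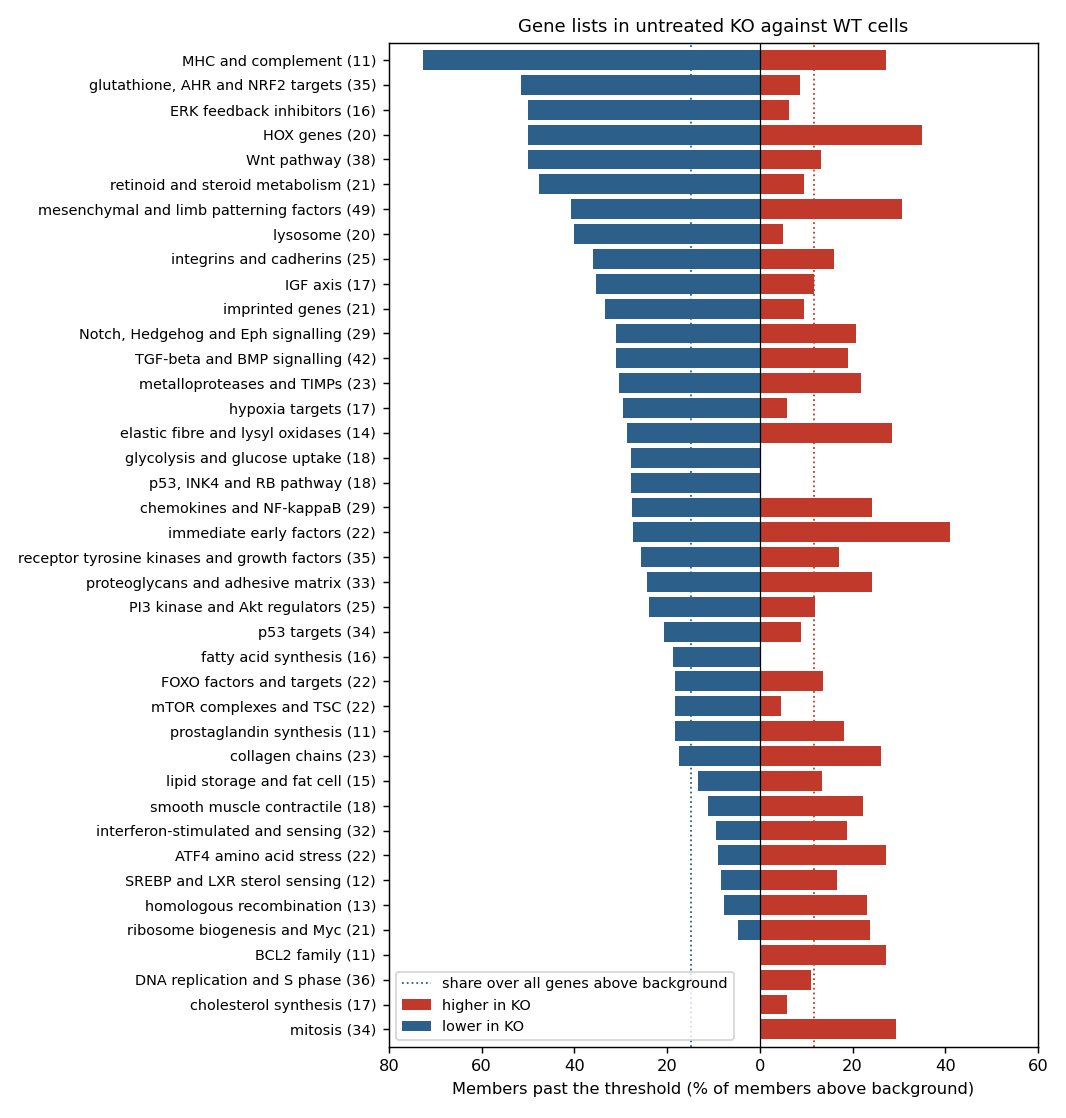
Share of the members above background (number in brackets) called higher in KO cells (red, to the right) or lower (blue, to the left) for each gene list with 10 or more such members, in percent. Dotted lines give the shares over all genes above background, 11.7% higher and 14.7% lower, and Wnt, glutathione and HOX genes extend far past the line for lower calls while mitosis has none. The lists were chosen with earlier results of these data known.

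Levels also differed slightly by chromosome. For each array the median level of the genes of a chromosome was taken relative to all genes, over the 10237 genes above background in both lines. The KO and WT arrays did not overlap for 12 of 20 chromosomes, 6 higher and 6 lower in KO cells. Chromosome 12, which carries Akt1, gave -0.145, -0.132 and -0.185 on the KO arrays, against 0.253, 0.147 and 0.095 on the WT arrays. It was the lowest of all, with a median difference of -0.29 over 358 genes, of which 22.1% had a higher value in KO cells. Chromosome 14 was the highest, with 0.153, 0.132 and 0.119 on KO arrays, against -0.165, -0.098 and -0.139 on WT arrays, a median difference of 0.31 and 73.8% of its 340 genes higher. Chromosomes 1, 8 and 17 had medians of 0.21, 0.22 and 0.22, chromosome 7 had 0.18 and chromosome 9 had 0.10. Chromosomes 15, 10, 4, 5 and 11 had medians of -0.17, -0.12, -0.05, -0.03 and -0.05.

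The differences extended along the length of chromosomes 1, 12 and 14. In consecutive windows of 25 genes, all 14 windows of chromosome 12 had a median below 0 (from -0.85 to -0.06) and all 13 of chromosome 14 a median above 0 (from 0.19 to 0.49). All 22 windows of chromosome 1 were above 0. On chromosome 2, whose median was 0.01, windows ran from -0.29 to 0.27. Calls followed the same lines, with 3.39% of the genes above background on chromosome 12 called higher and 26.4% lower, against 21.6% higher and 11.6% lower on chromosome 14. The irradiated arrays, which share none of these samples, gave medians of -0.27 at 4 h and -0.35 at 24 h for chromosome 12 and 0.31 and 0.36 for chromosome 14. In all, 12 chromosomes were without overlap at all 3 times and kept their direction. The number of copies of each chromosome in these cells was not measured, and its part in the differences was not tested.

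Around Akt1 itself, 30 of the 40 nearest measured genes lay above background and 16 of these were called, 15 of them lower. Of all genes above background 14.7% were called lower, and of those on chromosome 12 26.4%. Crip1 (1509.6 against 14597, -3.27 ± 0.29, adjusted p = 7.4e-08) and Crip2 (207 against 809.6, -1.97 ± 0.26), LIM domain proteins, Ppp1r13b, a cofactor of p53 (222 against 1229.8, -2.47 ± 0.18), Clba1 (-1.94 ± 0.22), Nudt14 (-1.53 ± 0.21) and Aspg (-5.07 ± 1.08) fell. Ckb, the brain type creatine kinase, rose alone (1.86 ± 0.29, adjusted p 0.054 on the 6 compared arrays).

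**Figure D5:**
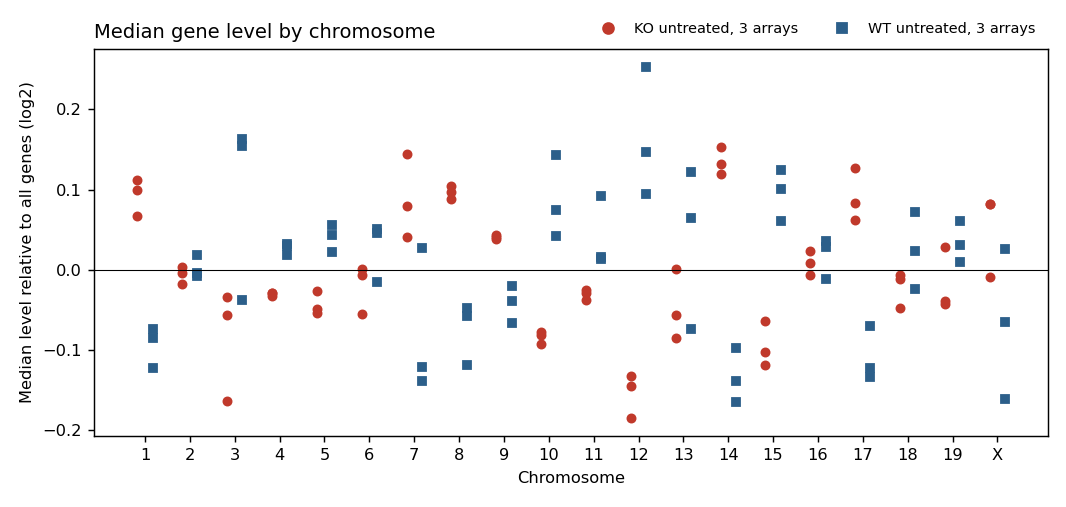
Median log2 level of the genes of each chromosome relative to all genes on 3 untreated KO arrays (red circles, left) and 3 untreated WT arrays (blue squares, right), over 10237 genes above background in both lines. Chromosomes 10, 12 and 15 show KO values below WT values, and chromosomes 1, 8, 14 and 17 show KO values above WT values without overlap.

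The same lines were measured again on other arrays after 10 Gy. Of the 11431 genes, 2543 were called between KO and WT cells at 4 h (22.2%) and 3221 at 24 h (28.2%). Of the 3027 genes called in untreated cells, 1974 were called the same way at 4 h, 2474 at 24 h and 1826 at both (60.3%), 707 higher and 1119 lower. None was called the opposite way at 4 h or 24 h, and 2971 kept their sign at both times. Akt1 was at 37 and 18.4 in KO cells at 4 h and 24 h, against 4169 and 3035 in WT cells.

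No gene above background had a KO to WT difference that changed with irradiation past the threshold of limma. Among genes above background, 594 had an unadjusted limma p below 0.05 for the change from untreated cells to 4 h and 236 for the change to 24 h. Their smallest adjusted p values were 0.11 and 0.14, both for Ebf3, a transcription factor of the Ebf family. Without the 5 arrays that stood apart 13 genes passed for the change to 4 h, and without 1 replicate 0 to 4 did (2 without WT replicate 1, 4 without WT replicate 2). The level of Ebf3 was 116, 123 and 136 in KO cells untreated, at 4 h and at 24 h, against 375, 159 and 174 in WT cells.

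In the line labelled R the brightest Akt1 probe set read 20.9 untreated, below background as in KO cells. How PKBalpha was restored is not given in the sources used here, and whether these probe sets detect RNA of a restored gene was not tested. Its other levels were nearer to those of KO than of WT cells in 2506 of the 3027 called genes (82.8%), with levels below background set to background. That share is a description, since the KO and WT arrays chose these genes. Side by side, Upk3b read 18.8 in KO cells, 11.2 in the line labelled R and 16385 in WT cells, Hoxc8 read 3310.4, 3891 and 13.3, and Igf2 read 83, 129 and 12596. Among genes picked after their values were seen, Actg2 and Ctsk set KO cells apart from both other lines, with Actg2 at 2655 in KO cells, 299 in the line labelled R and 143 in WT cells, and Ctsk at 635, 74.1 and 48.5.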

How the data were processed

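Gene expression was measured on 27 mouse Affymetrix arrays. The intensities were deposited on a linear scale in 1 table, and each array had the same trimmed mean of 500. RMA and GCRMA are named, per the submitters' processing notes, but the values have the form of neither, and how probe signals were summarised is not given in the sources used here. No scanner dates were used.

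Of 45101 probe sets, 34945 carried 1 gene symbol and gave 18194 genes, each by its brightest probe set. Values were taken as log2 without an offset. Means of 9 groups were fitted over all 27 arrays with limma 3.58.1 in R 4.3.3 (18 residual and 1.391 prior degrees of freedom), tested on simulated data first, and p-values were Benjamini-Hochberg adjusted over 18194 genes. Background was the highest of 243 values from 9 probe sets of Y-linked genes. The number of arrays and signal near background limit the precision. The members and gene lists were chosen with earlier results of these data known. Named genes were Akt genes, the 20 largest separated differences in each direction, list members (at least the 4 of smallest p in a list), Xist, neighbours of Akt1 and the smallest p of the change with irradiation. Same-numbered KO and WT arrays deviated together (correlations 0.362, 0.303 and 0.629), so numbers were taken to pair arrays in the fits with a block. The main fit had no block, so its standard errors, p-values and calls leave this pairing out. Alternatives were the block, the 6 arrays alone, a variance trend, other scalings, probe set means, an offset of 32, a floor of 100, and left-out arrays. The block on the 6 arrays alone was added after the data were seen.

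Promoter windows are those of RefSeq on GRCm38.p6 and matched 9248 of the 11431 genes.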

Additional observations from a re-analysis of the deposited data

How the results depend on the processing

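The number of genes called between untreated KO and WT cells was 3027, and lay between 2529 and 3717 under the variance trend, both rescalings, the mean of probe sets, the offset of 32, adjustment over genes above background, the floor of 100 and the fit without the 5 arrays that stood apart. Without 1 replicate it ran from 2371 (without KO replicate 0) to 2902 (without KO replicate 2). The fit to the 6 compared arrays alone called 1142. With the replicate number as a block (replicate block) 3048 genes were called, of which 2951 were among the 3027, and on the 6 arrays alone the block left 351 calls, an alternative chosen after seeing the data. These paired fits to few arrays have few residual degrees of freedom. Under that last fit Akt1 kept its difference of -7.92 with an adjusted p of 0.076 from limma. Of 279 named called genes it left 174 without a call and reversed none, and these losses are not given gene by gene. Replicate 2 of both lines is among the arrays that stood apart, so what the numbers share was not tested.

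Genes called the same way at all times numbered 1826, between 1504 and 2257 under the other alternatives, 762 on the arrays compared alone and 1629 to 1780 without 1 replicate. Changes of the KO to WT difference with irradiation were counted here among genes above background in untreated KO or WT cells. Those to 4 h numbered 0, or 1 after quantile normalization, 2 with the offset and 13 without the 5 arrays. Without 1 replicate they numbered 0 to 4 (1 without KO replicate 1 or 2, 2 without WT replicate 1 and 4 without WT replicate 2). Those to 24 h numbered 0, and 0 to 1 without 1 replicate (1 without KO replicate 1). With equal array medians Akt2 turned to 0.04, and by the mean of its probe sets Ptprc, below background in both lines, turned to 0.23. Of 55 gene and marker lists 41 kept the sign of their median under both rescalings, and medians are printed for such lists only. Signal near background limits the rest, since the median SD between arrays in log2 was 0.64 for the tenth of the genes that were dimmest in KO cells, against 0.24 for all genes above background.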
